A study of Mus musculus with 3 samples.

Results

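MHC class II molecules carry peptides from endosomes to the cell surface, where CD4+ T cells read them. The 9 genes described here encode the chains of these molecules, the proteins that load peptide onto them and the factor that switches their transcription on. They were listed by name: H2-Aa, H2-Ab1 and H2-Eb1 for the chains, Cd74 for the invariant chain, H2-DMa, H2-DMb1 and H2-DMb2 for the peptide exchange factor DM, H2-Oa for a chain of its inhibitor DO, and Ciita for the class II transactivator. All 9 were found among 55536 mouse gene rows. RNA came from the cytosolic fraction of bone-marrow-derived macrophages of C57BL/6J mice. The cells met Lipid A, the part of bacterial lipopolysaccharide that anchors it in the membrane, at 100 ng/ml for 12 h. A washout of 12 h and a return of 100 ng/ml Lipid A for 120 min followed. Every library had both exposures, so the data hold 1 group with 3 replicates and no untreated or once-treated cells, and levels are described without a test between conditions. The labels number the libraries as biological replicates but give them 1 shared donor entry. They do not give the age or sex of the animals, nor whether the replicates are separate animals or cultures, so that the spread between them may be technical.

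In the class II pathway the alpha and beta chains pair in the endoplasmic reticulum with the invariant chain, which blocks the peptide groove and guides the complex to endosomes. Proteases there trim the invariant chain to a fragment called CLIP, and DM exchanges CLIP for other peptides, a step that DO restrains. Ciita binds no DNA itself and acts through factors assembled on short boxes, named X and Y among others, in class II promoters. Mouse strains with the b haplotype of the class II region, C57BL/6J among them, are known to make the A molecule from H2-Aa and H2-Ab1 but to lack a working alpha chain for the E molecule, the partner of the H2-Eb1 product.

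The libraries held 29273913, 64712406 and 37602753 expected counts on gene rows in replicates 1, 2 and 3. Values are TPM, a length-corrected relative abundance taken over all rows of the deposited gene table, given for replicates 1, 2 and 3 in that order and as mean ± SD (n = 3). Protein-coding genes took 32.5%, 26.5% and 27.1% of the TPM, so TPM of these genes are low in absolute terms and shift with the other RNAs. Replicate 3 stood apart in its nuclear and mitochondrial RNA. Malat1, a nuclear noncoding RNA, was at 191, 133 and 952 TPM, and Neat1, another, at 14.3, 10.9 and 55.6 TPM. Mitochondrial-encoded genes took 0.473%, 0.47% and 1.46% of the protein-coding TPM. Without replicate 3, the mean TPM of the 9 genes was 0.838 to 1.14 times their mean over all 3 libraries. The lowest of these ratios was that of H2-Oa and the highest that of H2-DMb2.

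Macrophage markers were abundant and those of other cells that make class II were low. In every library each of the 9 macrophage markers was at 1 TPM or more, and together they summed to 4370 to 4620 TPM. Of 8 B cell markers none did, and they summed to 0.95 to 1.56 TPM, most of it from Cd79b at 1.15 ± 0.269 TPM. Pax5, the factor of B cell identity, was at 0.03, 0 and 0.02 TPM. Of 8 conventional dendritic cell markers 1 reached 1 TPM in every library, Batf3 at 1.32 ± 0.283 TPM, and the list summed to 2.46 to 3.44 TPM. Flt3 was at 0.0267 TPM and Cd209a at 0. Of 4 plasmacytoid dendritic cell markers 1 did, Cox6a2 at 2.75 ± 0.917 TPM, and the list summed to 2.13 to 3.99 TPM, with Siglech at 0.08 TPM. T cell markers summed to 0.12 to 0.2 TPM. In bulk RNA, fewer cells of a type and less RNA per cell cannot be told apart, and the part that such cells have in the class II levels was not tested.

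**Figure D1:**
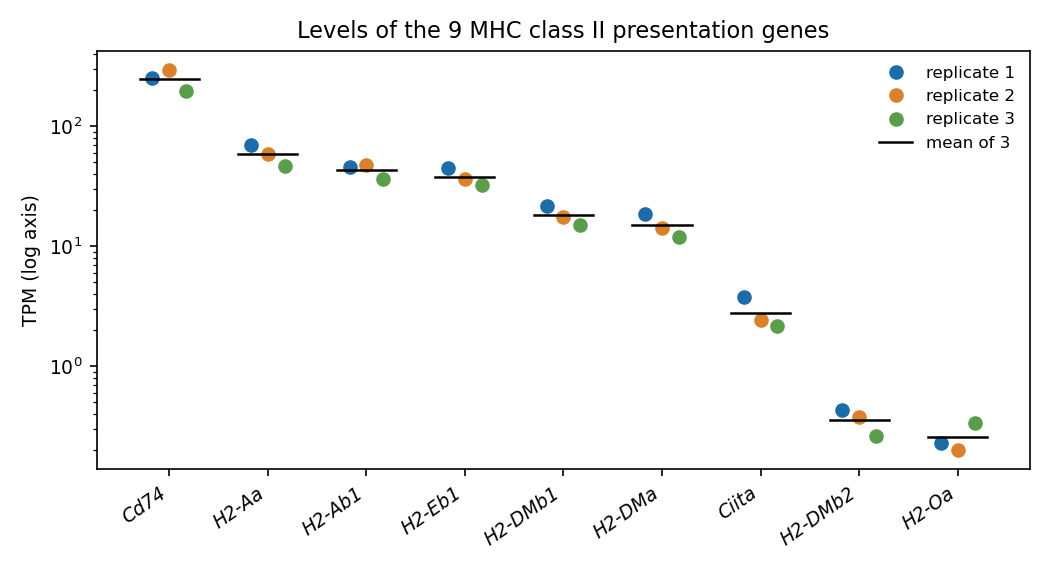
TPM of the 9 class II presentation genes on a log axis, 1 point per library and a black line at the mean of 3 libraries. Cd74 stands highest at 197 to 295 TPM, 5 genes lie between 11.9 and 70.3 TPM, Ciita between 2.15 and 3.76 TPM, and H2-DMb2 and H2-Oa stay under 1 TPM.

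The invariant chain gene Cd74 was the highest of the 9 (ENSMUSG00000024610.15, mm10, chromosome 18, 60803848 to 60812652, plus strand). It stood at 252, 295 and 197 TPM, a mean of 248 ± 49.5 TPM, which placed it at rank 141 of 22028 protein-coding genes. It alone made up 55.1% to 62.4% of the summed TPM of the 9 genes, depending on the library. Within libraries it lay 5.55-, 6.21- and 5.43-fold above H2-Ab1, a log2 ratio of 2.52 ± 0.10.

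The gene has 5 annotated transcripts, of which a pair held nearly all of its TPM. Cd74-201 held 80.5%, 77.4% and 75.8%, a mean of 77.9% ± 2.38. Cd74-202 held 19.3%, 22.5% and 24.2%, a mean of 22.0% ± 2.45. Cd74-202 differs by an additional exon of 192 bases, or 64 codons, known to encode a thyroglobulin-type domain that binds cathepsins and that distinguishes the long form of the invariant chain from the short one. The second deposited transcript table, made from the reads and an index, gave Cd74-202 25.2% ± 3.38. Cd74-202 was the lower of the pair in each library of both tables.

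The chains of the A molecule were next in the order. H2-Aa, the alpha chain (ENSMUSG00000036594.15, chromosome 17, 34282744 to 34287823, minus strand), stood at 70.3, 58.6 and 46.9 TPM, a mean of 58.6 ± 11.7 TPM. H2-Ab1, the beta chain (ENSMUSG00000073421.6, chromosome 17, 34257689 to 34269419, plus strand), stood at 45.4, 47.6 and 36.2 TPM, a mean of 43.1 ± 6.03 TPM. Their ranges overlapped, but H2-Aa was above H2-Ab1 in 3 of 3 libraries, by 1.55-, 1.23- and 1.3-fold. H2-Aa-201 held 99.1% ± 1.48 of the H2-Aa TPM and H2-Ab1-201 94.8% ± 0.566 of the H2-Ab1 TPM.

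H2-Eb1, the beta chain of the E molecule (ENSMUSG00000060586.11, chromosome 17, 34305867 to 34316674, plus strand), stood at 44.9, 36.7 and 32.2 TPM, a mean of 37.9 ± 6.45 TPM. This was close to the level of H2-Ab1: it lay below H2-Ab1 in 3 of 3 libraries, at 0.989, 0.771 and 0.89 times its level, with ranges that overlapped. In the second quantification it was above H2-Ab1 in replicate 1, at 19.7 against 18.6 TPM, and the log2 ratio was -0.03 ± 0.09. For the partner alpha chain, the annotation lists H2-Ea-ps as a polymorphic pseudogene, and it had 0 counts in each library, where a count of 0 allows up to 3 counts. That limit covers counting error only.

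Most of the H2-Eb1 TPM was assigned to transcripts that the annotation does not call protein-coding. The assignment is limited to the annotated transcripts and their ends, as described below. H2-Eb1-205, annotated as a target of nonsense-mediated decay, held 51.3%, 52.0% and 54.1%, a mean of 52.5% ± 1.47. H2-Eb1-204, a retained-intron transcript, held 20.8%, 20.3% and 29.5%, and the protein-coding H2-Eb1-203 held 23.7%, 25.0% and 13.8%. In this first table replicate 3 was the lowest for H2-Eb1-203 and the highest for H2-Eb1-204. The second table did not show that pattern: H2-Eb1-203 held 10.3%, 6.39% and 7.54% there, lowest in replicate 2, and H2-Eb1-204 held 30.2%, 30.5% and 31.6%. Retained-intron transcripts took 2.86%, 2.25% and 3.52% of the transcript TPM of the 9 genes, against 3.06%, 3.56% and 4.11% over all protein-coding genes. In the second transcript table H2-Eb1-205 held 56.7% ± 1.16, H2-Eb1-204 30.8% ± 0.731 and H2-Eb1-203 8.08% ± 2.01, so H2-Eb1-205 led in both tables while the share of H2-Eb1-203 differed more than the spread between libraries.

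H2-Eb1-205 and H2-Eb1-203 share their first splice donor and differ in where the second exon begins. The junction is shown because it separates the leading transcript from the protein-coding one. The second exon of H2-Eb1-203 begins at position 34309591 of chromosome 17 and has 270 bases, and that of H2-Eb1-205 begins 53 bases further on, at 34309644, and has 217. A difference of 53 bases is no multiple of a codon, and the annotated stop codon of H2-Eb1-205 lies inside this exon, at 34309826 to 34309828. The lines below run from 21 bases before the junction to 21 bases after the segment that differs, 5′ to 3′ from the GENCODE M21 transcripts, with the 53 bases that H2-Eb1-205 lacks in capitals (chr17:34306027-34309664, mm10, plus strand, intron left out).
H2-Eb1-203: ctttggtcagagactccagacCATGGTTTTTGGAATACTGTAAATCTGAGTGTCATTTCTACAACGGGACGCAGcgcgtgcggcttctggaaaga
H2-Eb1-205: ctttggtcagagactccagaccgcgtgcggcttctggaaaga

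The transcripts of H2-Eb1 also differ at the other end. The last exon has 801 bases in H2-Eb1-203 and 326 in H2-Eb1-205, and the transcripts that stop at the nearer end, H2-Eb1-205 and H2-Eb1-201, held 52.9% ± 1.56 together. Transcripts whose second exon starts at the acceptor of H2-Eb1-203 held 44.8% ± 0.932, against 52.5% ± 1.47 for the acceptor of H2-Eb1-205. H2-Eb1-201 joins the 270-base second exon to the nearer end and held 0.496%, but its first exon has 31 bases against 181 in H2-Eb1-203 and its exon 4 has 238 against 111. No annotated transcript differs from H2-Eb1-203 in the 3′ end alone, so the tables give no value for such a molecule. Its reads would fall to the annotated transcripts, so the share of H2-Eb1 RNA that is protein-coding remains uncertain.

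The DM chains stood lower than the chains they act on. H2-DMb1, a DM beta chain (ENSMUSG00000079547.4, chromosome 17, 34153072 to 34160230, plus strand), stood at 21.7, 17.5 and 15.0 TPM, a mean of 18.1 ± 3.37 TPM. H2-DMa, the DM alpha chain (ENSMUSG00000037649.10, chromosome 17, 34119541 to 34139101, plus strand), stood at 18.6, 14.3 and 11.9 TPM, a mean of 14.9 ± 3.38 TPM. Their ranges overlapped, and H2-DMb1 was above H2-DMa in 3 of 3 libraries. H2-DMa lay at 0.84, 0.798 and 0.78 times the summed level of both beta chains, a log2 ratio of -0.31 ± 0.06, which had the smallest SD of the 8 ratios computed. H2-Ab1 lay 2.44-, 3.33- and 3.04-fold above H2-DMa. H2-DMb1-201 held 96.9% ± 4.95 of the H2-DMb1 TPM. H2-DMa-205 held 91.6% ± 4.19 of the H2-DMa TPM, and replicate 3 was the lowest for it at 86.8%. Exons of H2-DMa share 360 bases, 10.4% of its exon bases, with Brd2 on the other strand, and Brd2 averaged 88.4 TPM. Whether the counting used strand is not given in the sources used here, so reads of the overlap cannot be told apart.

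The other DM beta chain gene, H2-DMb2, was near the lower end (ENSMUSG00000037548.15, chromosome 17, 34143307 to 34151555, plus strand). It stood at 0.43, 0.38 and 0.26 TPM, a mean of 0.357 ± 0.0874 TPM, resting on 23.71, 55.13 and 21.74 expected counts. Its level was 0.0198, 0.0217 and 0.0173 times that of H2-DMb1. The leading transcripts of the 2 genes, H2-DMb1-201 with 1404 bases and H2-DMb2-203 with 1414, were 71.9% identical in a global alignment. Of the 1365 stretches of 50 bases in H2-DMb2-203, 349, or 25.6%, occur unchanged in H2-DMb1-201. Reads of these stretches can belong to either gene. The deposited standard deviation of its count from this ambiguity was 0.88, 1.51 and 0.9 counts, small beside the expected counts. The second quantification gave H2-DMb2 32.25, 60.9 and 29.64 counts, further from the first than that standard deviation in every library. It also assigned more counts to the libraries as a whole, at 35142099, 74032259 and 45908579, so raw counts are not directly comparable. How much of the gap comes from ambiguity with H2-DMb1 was not tested, and the level of H2-DMb2 is uncertain.

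H2-Oa, the alpha chain of DO (ENSMUSG00000024334.9, chromosome 17, 34092340 to 34095234, plus strand), was the lowest of the 9. It stood at 0.23, 0.2 and 0.34 TPM, a mean of 0.257 ± 0.0737 TPM, and had 9, 21 and 21 expected counts. Its range overlapped that of H2-DMb2, which was above it in 2 of 3 libraries. H2-DMa lay 80.8-, 71.4- and 35.1-fold above H2-Oa, so the DM alpha chain exceeded that of DO in every library, and replicate 3 had the smallest excess. The DO beta chain gene H2-Ob was at 0.14, 0.04 and 0.06 TPM with 5, 7 and 6 counts. Exons of H2-Oa share 321 bases with BC051537 on the other strand, which was listed at 0.00333 TPM.

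Ciita, the transactivator (ENSMUSG00000022504.10, chromosome 16, 10480059 to 10528418, plus strand), stood at 3.76, 2.45 and 2.15 TPM, a mean of 2.79 ± 0.856 TPM. This placed it at rank 7091 of the protein-coding genes, with 67.8% of them below it. Its counts were 873, 1392 and 664. It lay between the DM chains and the pair of H2-DMb2 and H2-Oa, with no overlap in range on either side. Exons of Ciita share 329 bases, 3.45% of its exon bases, with Dexi on the other strand, which averaged 3.48 TPM.

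Ciita is known to be transcribed from several promoters, each with its own first exon, which different antigen-presenting cells use to different degrees. In the annotation, its transcripts begin at 3 groups of first exons in genome order. The transcripts of the middle group (chr16:10488178-10488424) held 79.5%, 73.0% and 68.5%, a mean of 73.7% ± 5.52. Those of the group furthest downstream (chr16:10489746-10489864) held 22.8% ± 4.41, and those of the group furthest upstream (chr16:10480059-10480426) 3.56% ± 1.39. The downstream share rests on few reads. Ciita-203 had 49.37, 77.35 and 26.42 counts, Ciita-204 13, 26 and 26, and Ciita-208 3.73, 15.11 and 6.06. Ciita-208, of 680 bases, still held 8.26%, since TPM are corrected for length. Ciita-204 held 8.05% and shares no exon with Ciita-201. The second transcript table gave 59.6% ± 4.2, 34.9% ± 2.81 and 5.56% ± 1.98 for the same groups, so the order was the same but the middle group held less. Nearly all of the middle group was Ciita-201 at 72.0% ± 5.5. Ciita-201 is the only annotated transcript with the longer last exon, 2655 bases against 663 in Ciita-203, so reads from the additional bases fall to it whichever first exon the molecule has. No transcript outside Ciita-201 held 10% of the gene on average in the first table, while Ciita-208 and Ciita-203 held 15.2% and 12.7% in the second.

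**Figure D2:**
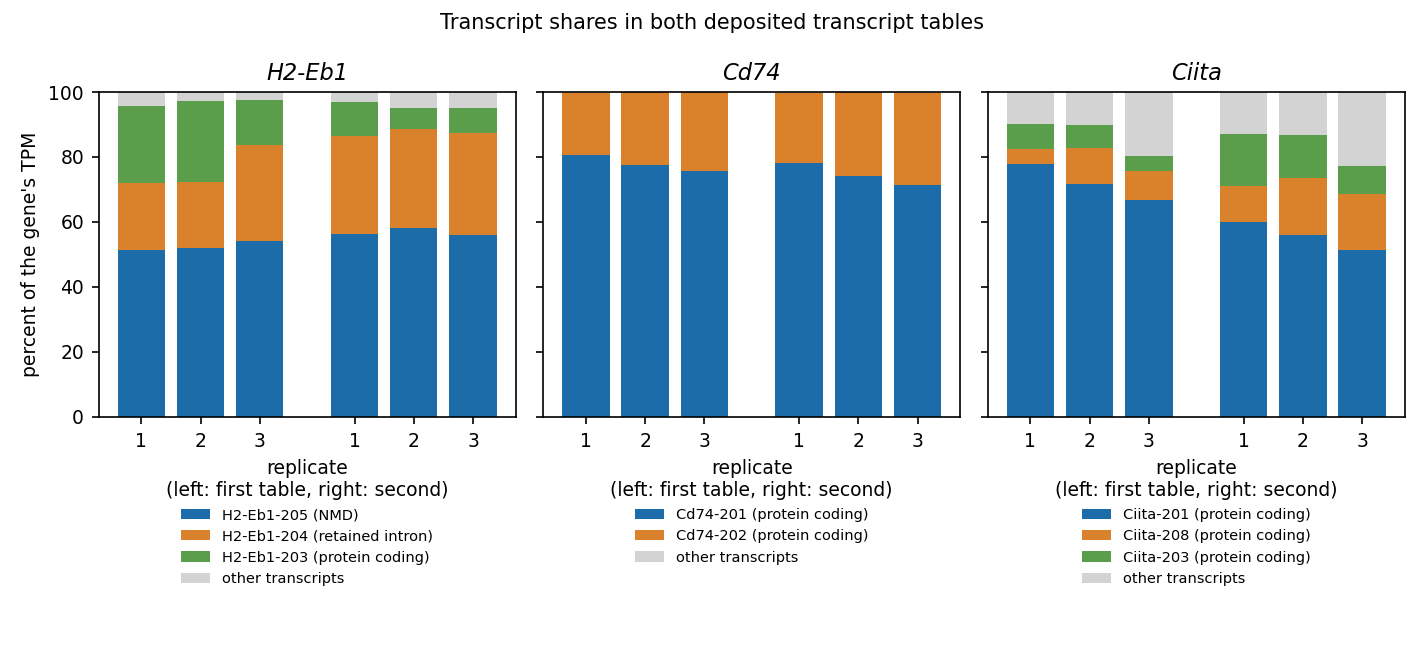
Percent of each gene's TPM held by its annotated transcripts in replicates 1, 2 and 3, for the first deposited transcript table (left bars) and the second (right bars). Transcripts with a mean of at least 10% in either table are coloured and the others are grey; H2-Eb1-205 leads at 51.3% to 58.1%, Cd74-202 stays between 19.3% and 28.3%, and Ciita-201 lies between 51.4% and 77.7%.

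The order of the 9 levels therefore had 4 steps without overlap in range. These were Cd74 over H2-Aa (log2 difference 2.08 ± 0.25), H2-Eb1 over H2-DMb1 (1.07 ± 0.03), H2-DMa over Ciita (2.44 ± 0.12) and Ciita over H2-DMb2 (2.95 ± 0.23). Within the chains H2-Aa, H2-Ab1 and H2-Eb1, within H2-DMb1 and H2-DMa, and within H2-DMb2 and H2-Oa, neighbours overlapped. Their log2 differences were 0.44 ± 0.17, 0.19 ± 0.18, 0.28 ± 0.06 and 0.48 ± 0.75 in that order.

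The lowest library was the same for most of the genes. On deposited TPM, 8 of 9 were lowest in replicate 3. The exception was H2-Oa, which was highest there but had only 9, 21 and 21 expected counts. The share of all genes lowest in replicate 3 was not computed, so this count has no background beside it. The other scales rest on the same 3 libraries and are no independent evidence. The same 8 were lowest in replicate 3 on TPM rescaled so that protein-coding and long noncoding genes make up the total, on CPM, which are counts relative to the library's size, scaled by TMM, a correction for library composition, and on both scales of the second quantification. Which of replicates 1 and 2 was higher depended on the scale. Replicate 1 was highest for 6 genes on deposited TPM, 4 on rescaled TPM and 3 on TMM-scaled CPM, and replicate 2 for 2, 4 and 5. The median protein-coding gene of at least 10 TPM itself lay at 0.17, -0.09 and -0.08 log2 from its mean on deposited TPM, and at -0.01, 0.02 and -0.01 on rescaled TPM. In replicate 3, Cd74 lay at -0.31 on deposited TPM and -0.24 on rescaled TPM, and Ciita at -0.33 and -0.26. All 8 lay further below their mean in replicate 3 than the median gene did on each of these scales. That median has no spread beside it, so the share of genes as low as these is not given. Ciita and H2-DMb2 lie under its limit of 10 TPM, and H2-DMb2 also had few expected counts, at 23.71, 55.13 and 21.74.

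**Figure D3:**
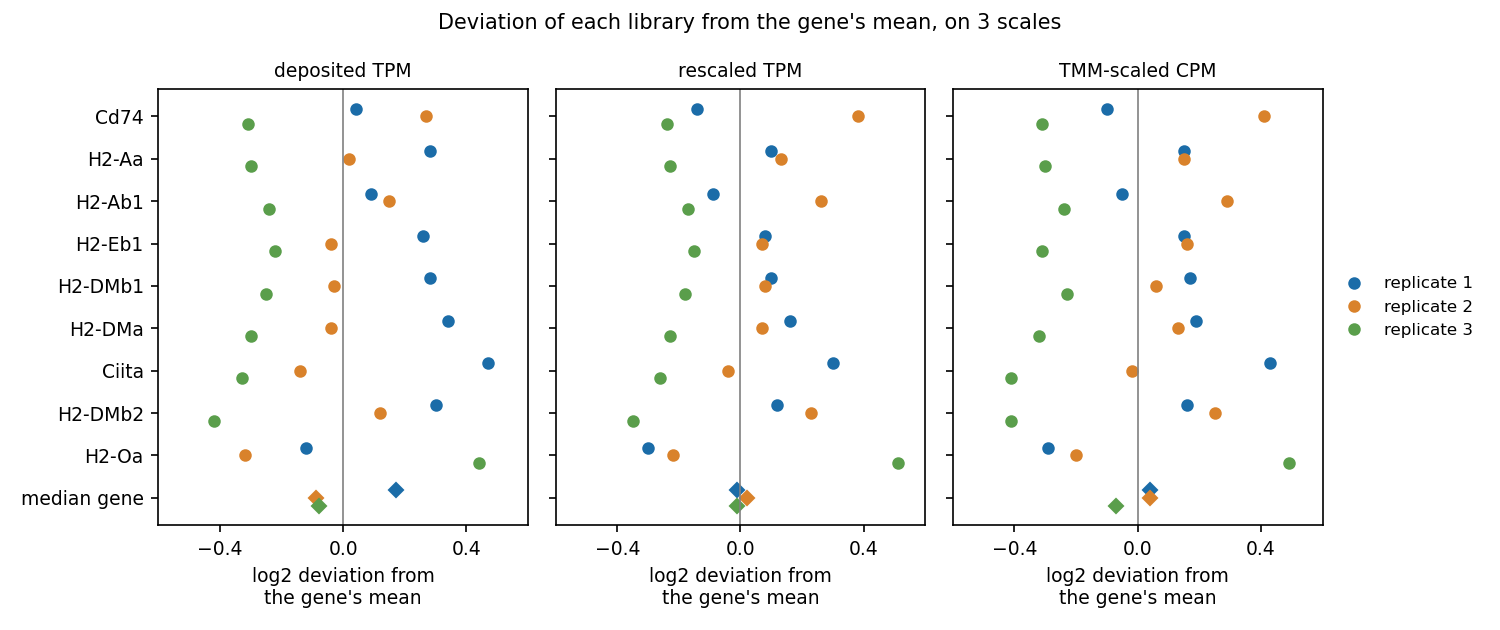
Log2 deviation of each library from the gene's mean, for the 9 class II presentation genes and the median protein-coding gene of at least 10 TPM (diamonds), on deposited TPM, on rescaled TPM (protein-coding and long noncoding genes as the total) and on TMM-scaled CPM. Replicate 3 is the lowest for 8 of 9 genes on each scale and the highest for H2-Oa, while the order of replicates 1 and 2 changes with the scale. The share of all genes lowest in replicate 3 was not computed.

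A chi-square test of counts against TMM-scaled library sizes, adjusted by Benjamini-Hochberg over all genes tested, asked whether a gene differed between libraries beyond counting error. It compares libraries and not conditions. Of the 9 genes 7 passed at 0.05, beside 72.0% of the 14568 genes tested, so the share is near the background. H2-DMb2 (adjusted p = 0.238 by the chi-square test) and H2-Oa (0.251) did not pass, and both had few counts. For Cd74 the statistic was 3100, the highest of the 9, and the adjusted p was too small to be held as a number. For Ciita the adjusted p by this test was 1.11e-28. Without replicate 3, 3 of 9 genes passed, namely H2-Ab1, Cd74 and Ciita, beside 54.0% of all genes tested then. The coefficients of variation of the 9 genes were 14.0% to 30.7% with a median of 20.0%. Over 3744 protein-coding genes of at least 10 TPM the median was 13.5% and the quartiles 8.17% and 20.8%. The sets are unlike, since Ciita, H2-Oa and H2-DMb2 lie under 10 TPM and had the highest values, at 30.7%, 28.7% and 24.5%. The 6 members of at least 10 TPM ran from 14.0% to 22.6%.

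Genes with the most similar profile over the 3 libraries were Txnl1, Pfkp, Lilr4b, Eif4e and Gch1, at Euclidean distances of 0.011 to 0.02 from the mean profile of the 6 members of at least 10 TPM, on centred log2(TPM + 1). With 3 libraries this measure separates little. Of 3738 candidate genes, 38.6% lay as near to that profile as the furthest of the 6 members did, at 0.275.

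Promoter sequence was read for the genes with a RefSeq window, since Ciita acts through the X and Y boxes. Whether these boxes relate to the levels in any library was not tested. Windows run from 250 bases before to 50 after the start, on GRCm38.p6. Of the 9 genes 6 had one, and H2-Ab1, Cd74 and Ciita had none. Both strands were searched for the X box core with the letters GNAAC. The Y box core was searched as ATTGG. The spaced combination was an X box core followed after 26 to 30 bases by a Y box core. The X box core occurred in 84.8% of 32851 windows of this length, the Y box core in 37.4% and the spaced combination in 0.886%. Counted per gene, on either strand, the combination occurred in 1.02% of 27025 genes with such a window. The combination was found on the gene's own strand in 4 of the 6 genes, with a gap of 27 or 28 bases: H2-Aa, H2-Eb1, H2-DMb1 and H2-Oa. It was also found in H2-Eb2 and not in H2-Ob.

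The lines below show the stretch in H2-Aa, H2-Eb1 and H2-Oa, from 8 bases before the X box core to the end of the Y box core, 5′ to 3′ on the gene's strand, with both cores in capitals. Their places are chr17:34287867-34287912 on the minus strand for H2-Aa, and on the plus strand chr17:34305768-34305812 for H2-Eb1 and chr17:34092295-34092340 for H2-Oa. All lie upstream of the RefSeq start of their window. In GENCODE M21 they lie upstream of the leading transcript of their gene, save the last base of the H2-Oa stretch, which is the first base of H2-Oa-201.
H2-Aa: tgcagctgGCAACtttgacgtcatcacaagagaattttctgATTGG
H2-Eb1: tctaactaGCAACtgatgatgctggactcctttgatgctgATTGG
H2-Oa: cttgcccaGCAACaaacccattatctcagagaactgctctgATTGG

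The match in H2-DMb1 lies upstream of its RefSeq start but inside the first exon of H2-DMb1-201, its leading transcript in GENCODE M21, and is not printed. The window of H2-DMb2 did not hold the combination, and it lies in the first intron of H2-DMb2-203, its leading transcript. Neither of the windows of H2-DMa held it, and neither lies at the start of H2-DMa-205, its leading transcript. H2-Oa, the lowest of the 9 at 0.257 TPM, and H2-Aa, at 58.6 TPM, both held it. A match is a run of letters in the window, and no binding was measured.

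The other genes of the pathway were mostly present. All 7 genes of the class II enhanceosome, the factors through which Ciita acts, reached 1 TPM in every library, with a median of 3.76 ± 0.525 TPM, close to the level of Ciita. Nfya, a subunit of the Y box factor, was highest at 22.4 ± 3.35 TPM, Creb1 followed at 7.0 ± 0.32 TPM, and Rfxank, a subunit of the X box factor, was lowest at 2.61 ± 0.515 TPM. Of these 7 genes, 5 passed the chi-square test between libraries, beside 72.0% of all genes tested. Of 13 genes known to regulate Ciita or to carry interferon-γ signals to it, 12 reached 1 TPM in every library, with a median of 34.2 ± 4.41 TPM. Irf1, an interferon-induced factor, was at 163 ± 56.2 TPM. Irf4, a factor of lymphocytes and dendritic cells, was lowest at 0.42 ± 0.174 TPM, and all 13 passed the chi-square test, beside the same 72.0%.

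Proteases and other endosomal proteins had a median of 361 ± 43.9 TPM, above the 18.1 ± 3.37 TPM of the 9 class II genes, while the levels of single genes overlapped: Ifi30 was below 5 of the 9. All 10 reached 1 TPM in every library. Ctsd and Ctsb, cathepsins of the lysosome, led at 2070 ± 92.2 and 1670 ± 183 TPM, and Ifi30, a thiol reductase that opens disulfide bonds of antigens, was lowest at 16.4 ± 2.1 TPM. Ctss, the cathepsin known to cut the invariant chain in macrophages and dendritic cells, stood at 1090 ± 178 TPM and was named after its value was seen. Of 10 symbols for regulators of class II at the surface and partners of Cd74, 8 were found. Their median was 47.9 ± 5.14 TPM. Cd63, a tetraspanin, was highest at 205 ± 26.8 TPM, Cd83, which opposes the removal of class II from the surface, was at 124 ± 31.0 TPM, and March8, a ubiquitin ligase, was lowest at 13.9 ± 2.78 TPM. March1, a ubiquitin ligase that directs class II to degradation, was uneven at 39.1, 16.4 and 33.0 TPM and was also named after its values were seen. All 10 endosomal genes and all 8 surface genes passed the chi-square test, beside 72.0% of all genes tested.

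Class I presentation, by contrast, rested on far more RNA as a list, with a sum of 7480 to 8770 TPM. Its 10 genes had a median of 160 ± 32.1 TPM, with B2m, the light chain of class I, at 3560 ± 576 TPM and the heavy chain gene H2-K1 at 2190 ± 147 TPM. Nlrc5, the class I counterpart of Ciita, was the lowest at 26.1 ± 7.46 TPM, against 2.79 ± 0.856 TPM for Ciita. The levels of single genes overlapped: Cd74, at 248 TPM, lay above the class I median, and H2-Aa, H2-Ab1 and H2-Eb1 lay above Nlrc5. B2m lay 92.9-, 67.8- and 89.0-fold above H2-Ab1. Over the 9 class II genes the median was 18.1 ± 3.37 TPM and the sum 457, 473 and 342 TPM, or 0.141%, 0.179% and 0.126% of the protein-coding TPM. The remaining genes of the class II region were near 0. None of the 4 found reached 1 TPM, with H2-Ob highest at 0.08 ± 0.0529 TPM, H2-Eb2 at 0.0767 ± 0.0569 TPM and H2-Ea-ps lowest at 0 counts.

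**Figure D4:**
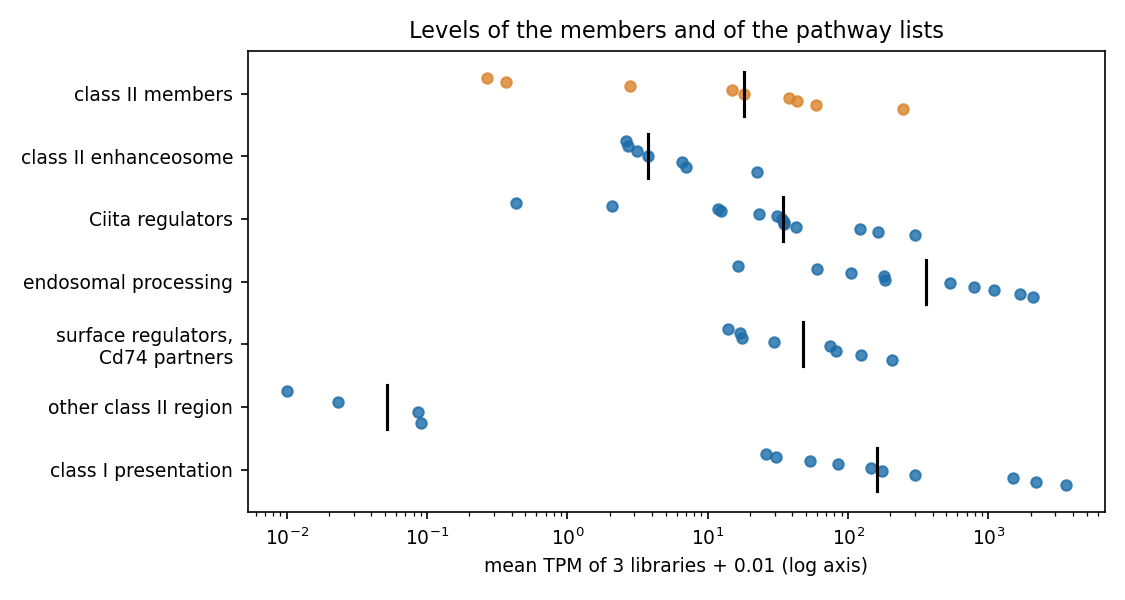
Mean TPM over 3 libraries plus 0.01 on a log axis, 1 point per gene, for the 9 class II presentation genes and 6 pathway lists, with a black line at each list's median. The class II genes spread from 0.257 to 248 TPM around a median of 18.1 TPM, below the class I list at 160 TPM and the endosomal list at 361 TPM and above the enhanceosome at 3.76 TPM.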

How the data were processed

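The submitters' library notes name mm10 and annotation release M21; the quantifiers, and whether they used strand, were not given there. The deposited gene table and a first transcript table give expected counts and, beside them, TPM, both derived from transcriptome alignments. The deposited second transcript table gives estimated counts with TPM, derived from reads and an index, and was summed per gene. The standard deviations of counts are other columns of the deposited gene table. TPM were kept as deposited. Rows naming no gene held 0.35%, 0.169% and 0.168% of the expected counts in replicates 1, 2 and 3 and were left out of library sizes.

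Rounded expected counts served for the TMM factors (edgeR 4.0.16) and DESeq2 1.42.0 size factors, in R 4.3.3. Genes that reached 10 counts in 1 library or more entered the chi-square test. The rest used matplotlib 3.10.9, scipy 1.17.1, pandas 2.3.3 and numpy 2.4.6 under Python 3.11.15. The p-values measure only the spread between these libraries, which may be technical. Promoters are from RefSeq (GRCm38.p6), transcripts and coordinates from GENCODE M21. A transcript share is its TPM over the TPM of all transcripts of its gene.

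The members, gene lists and tests were chosen with earlier results of these data known. Genes named are the 9 members, the 2 highest and the lowest of each pathway list, the 5 genes of at least 10 TPM with the nearest profile, and transcripts with at least 10% of a member. Marker genes and any other genes were named with their values known, and some genes picked by these rules are not reported here. The list symbols Marchf1 and Marchf8 stand in the tables as March1 and March8, and H2-Ea was not found. Alternatives were the second quantification, rescaled TPM, with protein-coding and long noncoding genes as the total, pseudocounts, TMM-scaled CPM, no filter on counts, DESeq2 size factors, list members of at least 1 TPM and leaving out each library.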

Additional observations from a re-analysis of the deposited data

How the results depend on the processing

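No mean log2 ratio changed sign under the alternatives run, though that of H2-Eb1 to H2-Ab1 was -0.03 in the second quantification. On log2(TPM + 0.1), H2-DMb2 and H2-Oa lay at -1.15 and -1.51, below 0 as low levels are on that scale. The count of class II genes that passed the chi-square test was 3 to 7 when each library was left out in turn, with 3 without replicate 3, beside 52.5% to 57.1% of all genes tested. It was 7 with DESeq2 size factors, no filter and the second quantification, beside 71.8%, 50.3% and 82.9% of all genes. In the second quantification the log2 ratio of H2-DMa to both beta chains was -0.21 and that of H2-DMb2 to H2-DMb1 was -5.4. With a pseudocount of 1, the log2 ratio of H2-DMb2 to H2-DMb1 was -3.8 and that of H2-DMa to H2-Oa was 3.64, since it lifts levels under 1 TPM. On TMM-scaled CPM, which are not corrected for length, Cd74 to H2-Ab1 was 2.63, H2-DMa to both beta chains -0.7 and B2m to H2-Ab1 5.77. List medians in the second quantification were 2.24 TPM for the enhanceosome, 16.4 for Ciita regulators, 169 for endosomal processing, 23.0 for surface regulators and 70.3 for class I. The levels of all 9 genes were also lower there on deposited TPM, for example 118 TPM for Cd74, and moved by less than 1 SD once TPM in both were rescaled to the total of protein-coding and long noncoding genes, an alternative added after seeing the data. A minimum of 1 TPM left no gene in the list of other class II region genes. Depth limits H2-Oa and H2-DMb2, at 9 to 55.13 expected counts. No paired analysis was possible because there is 1 group.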
